A study of Mus musculus with 3 samples.

Results

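The 41 genes described here encode clotting factors, their inhibitors, complement components and 2 adhesive plasma proteins that the liver makes, taken by symbol from the 32285 features listed for each library. Of these genes, 21 belong to coagulation and fibrinolysis and 18 to complement, while Vtn and Fn1 belong to neither class. A gene was called measured when its counts summed to at least 100 over the libraries, which held for 40 of the 41 genes and for 7855 features in all. The exception was C5ar1, a receptor for the complement fragment C5a, with 3, 0 and 11 counts in the ND, HFD and HFD_HDCA libraries.

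Primary hepatocytes of wild-type (WT) mice were released by collagenase perfusion and captured in droplets, and their RNA was counted at its 3′ end, each molecule once, by a unique molecular identifier (UMI). The ND library came from mice on normal diet, the HFD library from mice on 60% high fat diet, and the HFD_HDCA library from mice on that diet with 0.25% hyodeoxycholic acid, a secondary bile acid, each for 12 weeks. Each diet had 1 library, so differences between diets have no replicate check and no p-value, and every interval given for them covers counting error only. How many mice of which sex stand behind a library could not be learned from the labels.

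Hepatocytes secrete most of the proteins of the clotting and complement systems into the blood as inactive precursors. In coagulation, a chain of proteases ends in thrombin, which turns fibrinogen into fibrin, while antithrombin, protein C and the plasmin system limit and dissolve the clot. In complement, the lectin, classical and alternative pathways meet at C3, and the terminal components assemble a pore in the target membrane. Within the liver lobule, hepatocytes near the portal vessels (periportal) and near the central vein (pericentral) express different sets of genes.

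Barcodes with at least 200 genes and at most 50% mitochondrially encoded counts were retained, 2776 in ND, 2898 in HFD and 3000 in HFD_HDCA. Their median depth was 944.5, 868 and 1116.5 UMIs, and their median mitochondrial share was 11.4%, 12.9% and 7.42%. All 8 hepatocyte markers were detected in each library, at a summed level of 83490 to 93990 counts per 1000000 nuclear-encoded counts (CPM). Markers of endothelial cells summed to 389, 60.0 and 90.9 CPM in ND, HFD and HFD_HDCA, those of Kupffer cells to 107, 117 and 107 CPM, those of lymphoid cells to 11.5, 120 and 121 CPM, and haemoglobin genes to 0, 342 and 26.2 CPM. The bile duct markers Krt19, Krt7 and Epcam were at 0 in each library. Pairs of libraries shared between 1 and 5 retained barcode sequences.

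Together the 41 genes took 2.60% of the nuclear-encoded counts in ND, 2.43% in HFD and 2.21% in HFD_HDCA. Because the 3′ kit counts a molecule once whatever its length, CPM can be compared between genes without a length correction. The chains of fibrinogen, the precursor of fibrin, were the most abundant members, at 3991, 3443 and 2834 CPM for Fgg, 3404, 2815 and 2694 CPM for Fga and 3197, 2477 and 2360 CPM for Fgb in ND, HFD and HFD_HDCA. These genes lie side by side on chromosome 3 of GRCm38, Fgg at 83007724 to 83015049, Fga at 83026076 to 83033627 and Fgb at 83040141 to 83049863. They made up 59.2% of the coagulation counts in ND, 56.1% in HFD and 55.3% in HFD_HDCA.

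Next in the coagulation class came Kng1, the kininogen that carries bradykinin, at 1311, 917 and 984 CPM, and Serpinc1, antithrombin, at 1159, 993 and 902 CPM. Plg, plasminogen, was at 859, 910 and 761 CPM and F2, prothrombin, at 761, 797 and 811 CPM. The least abundant coagulation gene was F11, the protease that activates factor IX, at 43.7, 44.2 and 20.02 CPM. Most counts of this class thus came from a few genes.

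Among complement genes C3, the hub of all pathways, had the highest level in each library, at 1113, 1239 and 1203 CPM. In the terminal pathway the highest level belonged to C8a, a chain of the pore component C8, in ND (910.0 CPM), to C9, which polymerises to form the pore, in HFD (892 CPM) and to C8g, the small chain of C8, in HFD_HDCA (579 CPM). C4bp, an inhibitor of the classical pathway, led its group at 555, 689 and 558 CPM. Mbl2, a mannose-binding lectin that starts the lectin pathway, led its own at 486, 716 and 748 CPM. C2, a protease precursor of the classical pathway, was lowest among the measured complement genes at 51.2, 38.8 and 27.1 CPM. The adhesive protein genes were at 936, 755 and 905 CPM for Vtn, vitronectin, and at 668, 943 and 868 CPM for Fn1, fibronectin.

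**Figure D1:**
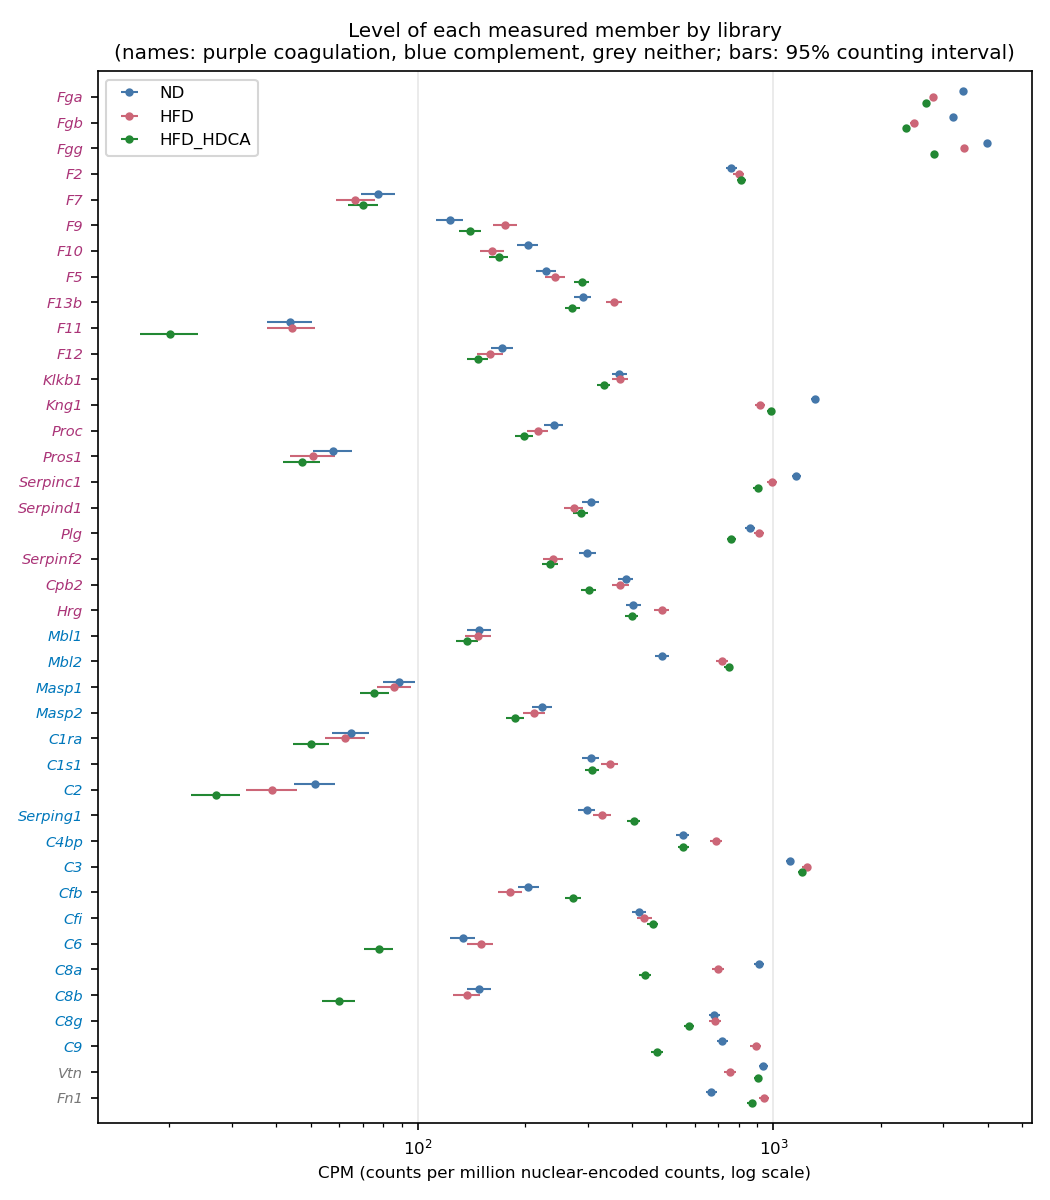
Level of each of the 40 measured genes in CPM on a log axis, 1 point per library (blue ND, red HFD, green HFD_HDCA), with bars for the 95% counting interval. The fibrinogen genes lie highest, and the HFD_HDCA points of F11, C6, C8a, C8b and C9 lie to the left of both other libraries.

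The summed coagulation level was 17884, 15567 and 14256 CPM in the 3 libraries, and the summed complement level was 6551, 7040 and 6052 CPM. Coagulation counts were therefore 2.73 times the complement counts in ND (95% counting interval 2.69 to 2.77), 2.21 times in HFD (2.18 to 2.24) and 2.36 times in HFD_HDCA (2.33 to 2.39). ND had the highest ratio. The fibrinogen genes together were at 10592, 8735 and 7888 CPM. In other groups of coagulation the summed level was 1896, 1491 and 1484 CPM for the contact system and 1764, 1536 and 1436 CPM for the anticoagulants. The vitamin K-dependent proteases stood at 1165, 1201 and 1190 CPM. In complement the terminal pathway had the widest spread, at 2591, 2558 and 1620 CPM.

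The first diet comparison set HFD against ND and bears on the high fat diet. No member differed by 1.5-fold or more: 0 of 40 were higher, against 6.91% of all measured genes, and 0 of 40 were lower, against 11.4%. The median log2 ratio was -0.15 over the 21 coagulation genes, 0.00 over the 17 measured complement genes and -0.06 over all measured genes. The counting interval lay below 0 for 13 of the 40 members, against 21.3% of all measured genes, and above 0 for 11, against 16.2%. An interval narrows as counts rise, and the members had higher counts than most genes. A summed count of at least 500 was reached by 39 members and by 3406 of the 7855 measured genes. These shares were therefore not compared at like counts.

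The 3 highest ratios belonged to genes of different roles. Mbl2 had a log2 ratio of 0.56 (0.47 to 0.64). F9, the protease missing in haemophilia B, had 123 CPM in ND and 175 in HFD, a log2 ratio of 0.51 (0.34 to 0.68), and Fn1 had a log2 ratio of 0.50 (0.42 to 0.57). At the low end, Kng1 had a log2 ratio of -0.52 (-0.58 to -0.46), C2 of -0.40 (-0.71 to -0.09) and C8a of -0.39 (-0.46 to -0.31). All 3 fibrinogen genes were lower in HFD than in ND, at -0.37 for Fgb, -0.27 for Fga and -0.21 for Fgg. The 4 anticoagulant genes Serpinc1, Serpind1 (heparin cofactor II), Proc (protein C) and Pros1 (protein S) had ratios from -0.22 to -0.15, and that of Pros1 had an interval that included 0. Mbl2 and F9 lie close to the 1.5-fold limit. Mbl2 passed it with median-of-ratios size factors (0.62), as did F9 with each barcode thinned to 500 UMIs (0.76).

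The second comparison set HFD_HDCA against HFD and bears on the added bile acid. It shares the HFD library with the first comparison, so the ratios are not independent. Here 5 of 40 members were at least 1.5-fold lower, against 4.05% of all measured genes, and 1 of 40 was at least 1.5-fold higher, against 6.76%. The lower genes were C8b, F11, C6, C9 and C8a, of which all but F11 encode terminal complement components. The higher gene was Cfb, factor B, the protease of the alternative pathway. The median log2 ratio was -0.12 over the coagulation genes, -0.18 over the complement genes and 0.05 over all measured genes. The HFD_HDCA library also had the greatest depth and the lowest mitochondrial share, and a library cannot be told apart from its diet. With barcodes of at most 20% mitochondrial counts the same members passed the limit.

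C8b, the chain through which C8 joins the forming pore, was at 149, 137 and 59.9 CPM in ND, HFD and HFD_HDCA, and its level was 2.29-fold lower in HFD_HDCA than in HFD (log2 ratio -1.20, -1.40 to -0.999). C6, which follows C5b in the assembly, was at 134, 149.9 and 77.7 CPM and 1.93-fold lower (-0.95, -1.13 to -0.77). C9 was at 718, 892 and 470 CPM and 1.90-fold lower (-0.92, -0.998 to -0.85). For each of these genes HFD_HDCA was the lowest library by more than the counting error. C8a was at 910.0, 696 and 434 CPM, highest in ND and lowest in HFD_HDCA, with a log2 ratio of -0.68 (-0.76 to -0.60) between HFD_HDCA and HFD. C8g was at 681, 683 and 579 CPM, a smaller difference of -0.24 (-0.31 to -0.16). The other terminal components, C5 and C7, are not among the members. C5 is encoded by Hc, whose level was 401, 379 and 324 CPM (log2 ratio -0.23, -0.33 to -0.13). C7 had 0 counts in each library.

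F11 was at 43.7, 44.2 and 20.02 CPM, from 187, 165 and 116 counts, and 2.20-fold lower in HFD_HDCA than in HFD (log2 ratio -1.14, -1.50 to -0.79). It was the only coagulation gene past the limit. The other contact system genes were close to their HFD level, at -0.16 for Klkb1, plasma prekallikrein, -0.12 for F12 and 0.10 for Kng1. Klkb1 is the neighbour of F11 on chromosome 8, at 45266689 to 45294859 beside 45241174 to 45262031. C8b, at 104766317 to 104804548, and C8a, at 104815679 to 104876398, lie close together on chromosome 4. C6, at 4727175 to 4814967, and C9, at 6445327 to 6498751, are both on chromosome 15, with C7 between them.

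Cfb was at 204, 182 and 273 CPM, 1.502-fold higher in HFD_HDCA than in HFD (log2 ratio 0.59, 0.46 to 0.72). This is at the limit itself, and the call was lost with median-of-ratios size factors (0.53) and with thinned barcodes (0.55). The gene next to it on chromosome 17, C2 at 34862604 to 34898265 beside Cfb at 34856374 to 34862518, had a ratio of the opposite sign, -0.52 (-0.85 to -0.18). Serping1, the C1 inhibitor, which also restrains plasma kallikrein, was at 299, 330 and 404 CPM (0.29, 0.19 to 0.39). C4bp had a ratio of -0.31 (-0.38 to -0.23), C3 of -0.04 (-0.10 to 0.01) and Cfi, the protease that inactivates C3b and C4b, of 0.08 (-0.01 to 0.17). The complement genes thus ran in both directions, with the terminal group lowest.

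In coagulation, F13b, the carrier subunit of the fibrin crosslinking enzyme, had a ratio of -0.39 (-0.50 to -0.29). F9 had a ratio of -0.32 (-0.47 to -0.17), which became -0.59 and passed the limit with thinned barcodes. All 4 genes of fibrinolysis were below 0, Cpb2 (a carboxypeptidase that protects fibrin) at -0.30, Hrg (a plasminogen-binding glycoprotein) at -0.28, Plg at -0.26 and Serpinf2 (the plasmin inhibitor) at -0.03. F5, the cofactor of prothrombin activation, was the highest coagulation gene at 0.25 (0.13 to 0.37). None of these reached 1.5-fold with the full counts.

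**Figure D2:**
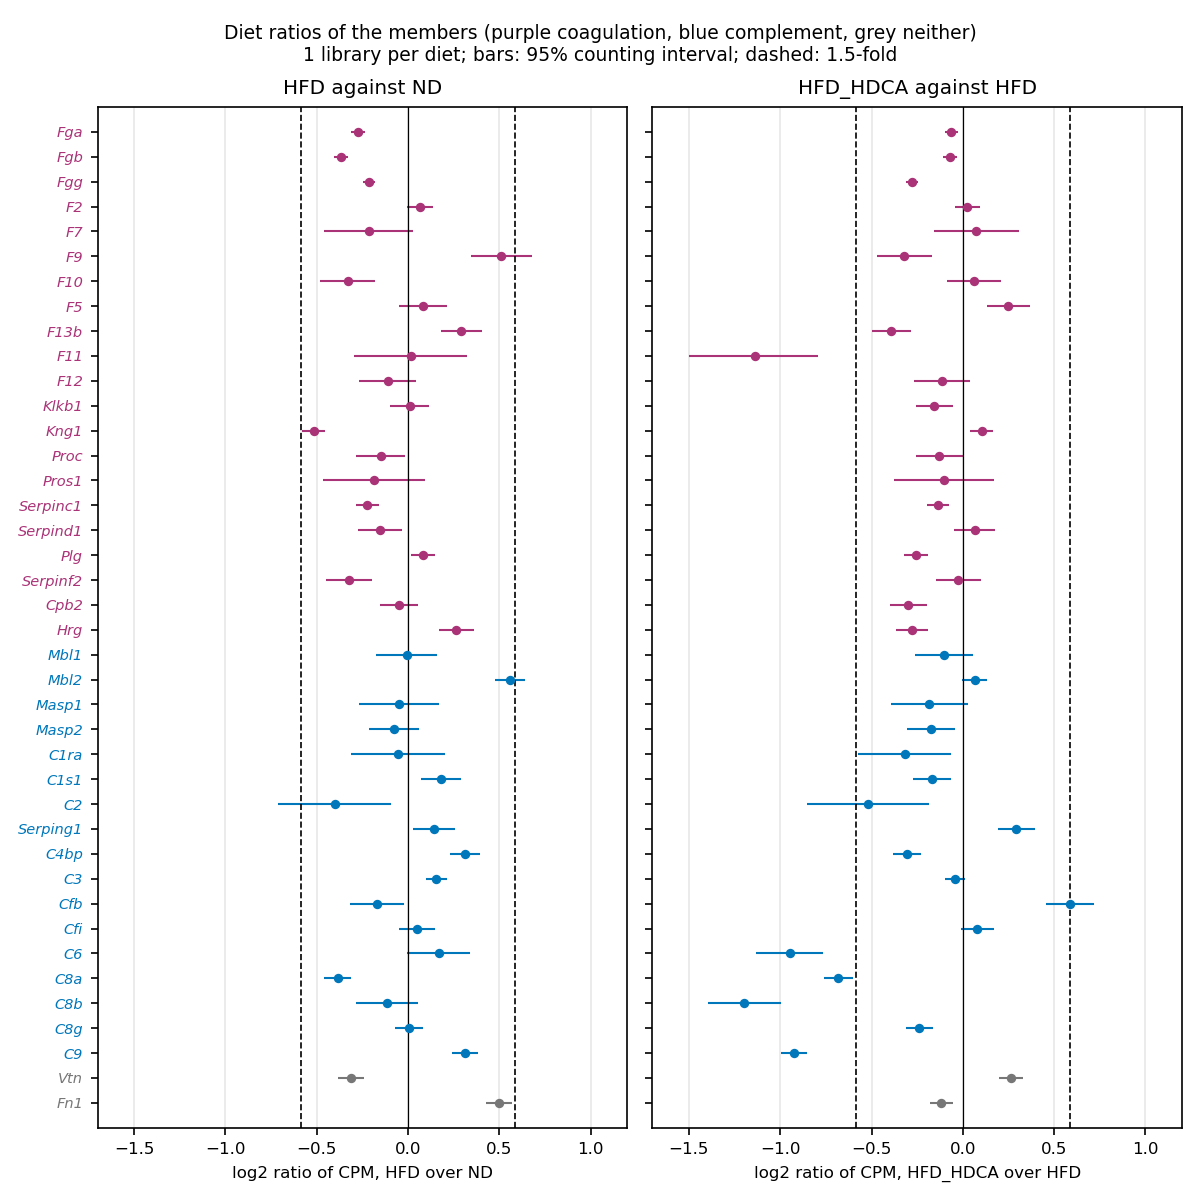
Log2 ratio of CPM of each measured member, HFD over ND on the left and HFD_HDCA over HFD on the right, with 95% counting intervals and dashed lines at 1.5-fold. No point lies outside the dashed lines on the left, whereas F11, C6, C8a, C8b and C9 lie left of the left line and Cfb at the right line in the right panel.

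Set against ND, the HFD_HDCA library had 6 of 40 members at least 1.5-fold lower, against 9.13% of all measured genes, and 1 of 40 higher, against 7.36%. This comparison shares a library with each of the others. The lower genes were C8b at -1.31 (-1.50 to -1.12), F11 at -1.13, C8a at -1.07, C2 at -0.92, C6 at -0.78 and C9 at -0.61 (-0.69 to -0.54). The higher gene was Mbl2 at 0.62 (0.55 to 0.70). C6 did not pass the limit with thinned barcodes (-0.51). Against ND the fibrinogen genes were at -0.34 for Fga, -0.44 for Fgb and -0.49 for Fgg, and Kng1 was at -0.41, none of them past 1.5-fold.

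The levels of C9, C8a and C8b were also described as the share of barcodes with a UMI of the gene. These shares come from the same counts and libraries as the ratios above and are no second check of them. C8g was not examined in this way. With each barcode thinned to 500 nuclear-encoded UMIs, which left out 339, 925 and 179 shallower barcodes of ND, HFD and HFD_HDCA, C9 was found in 27.1%, 32.1% and 17.2% of the barcodes that carried no other cell type's markers. C8a was found in 29.9%, 26.9% and 16.3% and C8b in 7.09%, 7.05% and 3.33%. Without thinning, at median depths of 805, 735 and 1026 nuclear-encoded UMIs, the shares were 46.6%, 48.1% and 41.3% for C9 and 18.6%, 15.4% and 10.3% for C8b, in the same order between HFD and HFD_HDCA. In the 88 thinned endothelial-marked barcodes of ND, which should lack these genes, 7.95% held C9, 7.95% held C8a and 1.14% held C8b (95% exact binomial interval 0.029 to 6.17%), with a median depth of 908 UMIs before thinning. The C9 and C8a shares of the HFD_HDCA hepatocytes were above these values and that of C8b lay within the interval of its own. In the 32 thinned endothelial-marked barcodes of HFD_HDCA, C9, C8a and C8b were each found in 3.125% (0.079 to 16.2%). The C9 and C8a shares of the HFD_HDCA hepatocytes were only just above that interval, and the C8b share lay within it. The genes shown in this way were chosen after their values were seen.

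Because the 5 genes lower in HFD_HDCA than in HFD form the main diet difference among the members, the 300-base windows around their transcription start are shown (RefSeq, GRCm38.p6, 250 bases before the start and 50 after it, 5′ to 3′ on the gene's strand), with that of Fga, an abundant coagulation gene with a ratio of -0.06. These 6 were chosen after their levels were seen. Capitals mark a match to a searched motif.
C8b promoter, chr4:104766067-104766366, plus strand: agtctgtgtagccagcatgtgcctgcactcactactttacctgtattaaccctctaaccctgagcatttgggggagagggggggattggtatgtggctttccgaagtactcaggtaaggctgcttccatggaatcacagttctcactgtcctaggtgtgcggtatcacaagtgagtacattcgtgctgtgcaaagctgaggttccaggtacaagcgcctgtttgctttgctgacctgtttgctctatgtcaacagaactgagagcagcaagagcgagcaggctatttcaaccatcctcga
C8a promoter, chr4:104876349-104876648, minus strand: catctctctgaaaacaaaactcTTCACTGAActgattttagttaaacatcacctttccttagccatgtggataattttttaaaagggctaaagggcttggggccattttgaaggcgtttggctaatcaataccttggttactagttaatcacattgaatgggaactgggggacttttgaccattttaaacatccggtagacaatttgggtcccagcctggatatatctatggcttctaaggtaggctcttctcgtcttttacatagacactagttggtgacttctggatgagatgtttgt
C6 promoter, chr15:4726960-4727259, plus strand: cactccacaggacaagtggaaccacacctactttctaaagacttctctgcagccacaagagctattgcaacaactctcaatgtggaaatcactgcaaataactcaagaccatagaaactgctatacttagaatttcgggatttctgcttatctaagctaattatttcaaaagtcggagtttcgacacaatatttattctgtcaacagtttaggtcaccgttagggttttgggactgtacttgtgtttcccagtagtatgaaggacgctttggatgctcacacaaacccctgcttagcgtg
C9 promoter, chr15:6445096-6445395, plus strand: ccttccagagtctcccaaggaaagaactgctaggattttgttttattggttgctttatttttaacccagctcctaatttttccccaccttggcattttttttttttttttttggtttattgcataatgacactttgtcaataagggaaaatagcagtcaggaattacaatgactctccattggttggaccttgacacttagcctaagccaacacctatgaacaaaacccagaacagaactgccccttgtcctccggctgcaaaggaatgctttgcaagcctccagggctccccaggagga
F11 promoter, chr8:45261982-45262281, minus strand: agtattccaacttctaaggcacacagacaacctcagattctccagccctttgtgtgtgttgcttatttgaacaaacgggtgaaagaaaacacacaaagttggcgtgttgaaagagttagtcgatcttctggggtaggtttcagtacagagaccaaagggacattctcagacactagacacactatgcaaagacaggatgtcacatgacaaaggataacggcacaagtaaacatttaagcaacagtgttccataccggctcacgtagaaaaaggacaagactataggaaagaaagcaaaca
Fga promoter, chr3:83025903-83026202, plus strand: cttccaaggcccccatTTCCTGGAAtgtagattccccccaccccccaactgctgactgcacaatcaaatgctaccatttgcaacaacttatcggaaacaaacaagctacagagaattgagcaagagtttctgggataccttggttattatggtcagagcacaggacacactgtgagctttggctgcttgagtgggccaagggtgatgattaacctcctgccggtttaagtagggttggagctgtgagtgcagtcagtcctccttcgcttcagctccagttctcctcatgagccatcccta

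Motifs were searched on both strands as exact letters, N standing for any base: TTCNNNGAA for STAT factors, TTGCGCAA for C/EBP factors, CAAAGTCCA for HNF4 and GGTCANTGA for the bile acid receptor FXR. A window was given for 32 of the 41 members. Members were counted by gene and the shares over all windows by window, which are unlike measures where a gene has several windows. The STAT letters were found in 8 of these 32 (C1ra, C8a, F9, Fga, Fgb, Masp2, Pros1 and Vtn) and in 8.30% of all 32851 windows. The FXR letters were found in the C5ar1 window alone among members and in 0.840% of all windows, and those of C/EBP and HNF4 in 0 of the 32 members and in 0.183% and 0.475% of all windows. Of the 5 lower genes, C8a held 1 match, to the STAT letters, 228 bases before its start site, and C6, C8b, C9 and F11 held 0. In Fga the STAT match began 234 bases before the start.

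Of a list of 13 transcription factors, receptors and other regulators known to act in hepatocytes on genes of this kind, 12 were measured. The exception was Socs3, with 26, 37 and 31 counts in ND, HFD and HFD_HDCA. In HFD against ND, 4 of the 12 were past 1.5-fold higher, against 6.91% of all measured genes, and 0 lower, against 11.4%. Cebpb, a C/EBP factor of the acute-phase response, was at 297, 1198 and 817 CPM in ND, HFD and HFD_HDCA, and Cebpd at 5.15, 25.4 and 13.6 CPM. Il6ra, the receptor chain for interleukin 6, was at 32.3, 81.9 and 43.1 CPM, and Ppara, the fatty acid-sensing nuclear receptor, at 42.3, 98.0 and 74.2 CPM. Each of these regulators had its highest level in HFD. In HFD_HDCA against HFD, 2 of the 12 were past 1.5-fold lower, against 4.05% of all measured genes, Cebpd at -0.90 and Il6ra at -0.92, and 0 higher, against 6.76%. The other measured regulators stayed within 1.5-fold in both of these comparisons. Hnf4a was at 223, 217 and 213 CPM, Cebpa at 361, 273 and 273 CPM and Foxa2 at 36.0, 53.0 and 52.1 CPM. Stat3 was at 62.9, 71.8 and 84.7 CPM and Il6st at 72.5, 67.7 and 56.6 CPM. Nr1h4, which encodes FXR, was at 72.3, 77.4 and 93.9 CPM, and Nr0b2, a target of FXR, at 104, 76.6 and 54.2 CPM. Nr3c1, the glucocorticoid receptor, was at 95.9, 114 and 112 CPM. In HFD_HDCA against ND, 3 of the 12 were past 1.5-fold higher, against 7.36% of all measured genes, and 1 lower, against 9.13%. The higher ones were Cebpb (1.46), Cebpd (1.38) and Ppara (0.81). The lower one was Nr0b2 at -0.94 (-1.16 to -0.73).

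The position of hepatocytes along the lobule was estimated within each library from 8 pericentral and 8 periportal landmark genes, none of them a member, and the barcodes were split by the resulting score into 3 zones of equal size. A zone is a range of a score and not a cell type: 398, 407 and 452 barcodes of ND, HFD and HFD_HDCA lay within 0.1 SD of a cut, and 650, 525 and 185 had fewer than 5 landmark UMIs. The pericentral zone was tested against the periportal zone with edgeR on counts summed per library and zone, with the library as a block and adjustment over all genes. Here the 3 libraries are the replicates of the zone difference, and a diet-dependent zone difference counts as error. With 1 library per diet, such a dependence was not tested.

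Of the 40 tested members, 23 were higher in the periportal zone at an adjusted p under 0.05, against 5.03% of the 8272 genes tested, and 0 in the pericentral zone, against 4.74%. A call is easier to reach at high counts, which the members had, so these shares were not compared at like counts. In the pericentral direction edgeR gave an unadjusted p under 0.05 for 3 members, C4bp, Mbl1 and Mbl2, and DESeq2 called 0. Other settings called between 0 and 3. By class, 14 of 21 coagulation genes and 8 of 17 complement genes were periportal, together with Vtn. The median log2 ratio of pericentral over periportal level was -0.43 over coagulation genes, -0.28 over complement genes and -0.0013 over all genes tested. These ratios are after TMM scaling, which removed a median over all genes of 0.12, 0.04 and 0.06 seen on the CPM scale in ND, HFD and HFD_HDCA, so the ratios of CPM, averaged over the libraries, are less negative. The number of called members was 13 with DESeq2 and 2 (C3 and Serpind1) without the library block, a fit in which differences between diets count as error.

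The zones also differed in depth. The periportal zone had a median of 2191, 1614 and 2333 nuclear-encoded UMIs in ND, HFD and HFD_HDCA and the pericentral zone 692, 856.5 and 1097, and the median mitochondrial share was 13.8%, 13.7% and 11.05% against 9.19%, 10.5% and 6.32%. With zones cut within narrow bins of depth, which brought the median depths to between 803 and 803.5 in ND, 731 and 735 in HFD, and 1026.5 and 1027.5 in HFD_HDCA, 18 members were periportal, and with barcodes of at least 1000 UMIs alone 19 were. Both of these settings were chosen after the result was seen. The mitochondrial shares still differed in them, and the part of that difference in the result was not tested.

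C3 had the strongest periportal bias of the members. Its level was 1394, 1778 and 1627 CPM in the periportal zone and 705, 757 and 802 CPM in the pericentral zone of ND, HFD and HFD_HDCA, so that the zones did not overlap. The log2 ratio was -1.15 ± 0.11 (SE), a 2.22-fold difference, with an edgeR adjusted p of 9.94e-06. The SE of each zone ratio was derived from the edgeR F statistic, whose dispersion draws on all genes. It is not the spread of the 3 library ratios. Also in the central and alternative pathway, Cfb had a ratio of -0.87 ± 0.12 (adjusted p 0.00021) and Cfi of -0.75 ± 0.10 (adjusted p 0.000223). This role group was called in full, and each member was higher in the periportal zone of 3 of 3 libraries.

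In the terminal pathway C8a (-0.87 ± 0.12, adjusted p 0.000257), C9 (-0.87 ± 0.11, adjusted p 0.000187) and C8b (-0.60 ± 0.12, adjusted p 0.0041) were periportal. C9, for example, was at 873, 1094 and 615 CPM in the periportal zone and 510, 722 and 305 CPM in the pericentral zone, with the middle zone between them in each library. C8g and C6 were not called, with ratios of -0.02 and -0.0013. C8g was nearly flat, at 648, 705 and 566 CPM periportally and 715, 680 and 597 CPM pericentrally. C6 had no common direction, at -0.38 in ND (-0.70 to -0.08), 0.53 in HFD (0.26 to 0.80) and 0.04 in HFD_HDCA.

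In the lectin pathway 0 of 4 genes were called, and in the classical pathway 2 of 5 were periportal. Mbl2 was higher in the pericentral zone of 3 of 3 libraries, with 438, 646 and 581 CPM periportally and 600.0, 749 and 900.4 CPM pericentrally, but did not pass the test (0.36 ± 0.11, adjusted p 0.0589). Mbl1, the second mannose-binding lectin, had a ratio of 0.30 (adjusted p 0.114) and C4bp one of 0.30 (adjusted p 0.0921), again with the same sign in each library. The lectin pathway proteases Masp1 and Masp2 were at -0.21 and -0.08 without a call. In the classical pathway Serping1 (-0.45, adjusted p 0.0105) and C2 (-0.55, adjusted p 0.0453) were periportal, while C1ra and C1s1, which encode the proteases of the C1 complex, were not called (-0.28 and -0.16). The call of C2 was kept in 3 of 13 alternative settings, so it depended on the settings.

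Among coagulation genes the strongest bias was that of Serpind1, at 376, 363 and 380.5 CPM periportally and 211, 218 and 224 CPM pericentrally, levels nearly the same in each diet. Its log2 ratio was -0.85 ± 0.10 (adjusted p 8.83e-05). C3 and Serpind1 kept their call in 13 of 13 alternative settings. The fibrinogen genes were all called, Fgb at -0.74 ± 0.11 (adjusted p 0.000604), Fgg at -0.68 ± 0.11 (adjusted p 0.00146) and Fga at -0.62 ± 0.11 (adjusted p 0.00258). Fgb, for example, was at 3815, 3036 and 2855 CPM in the periportal zone and 2256, 1965 and 1869 CPM in the pericentral zone, with no overlap between the zones.

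Of the vitamin K-dependent proteases, F7, the partner of tissue factor, was at -0.72 ± 0.13 (adjusted p 0.00257) and F10, which forms the prothrombin-activating complex with F5, at -0.69 ± 0.10 (adjusted p 0.000612). These genes are neighbours on chromosome 8, F7 at 13026034 to 13035809 and F10 at 13037308 to 13056676. F9 was at -0.37 (adjusted p 0.0457) and F2 was not called at -0.17. In the contact system Kng1 (-0.61, adjusted p 0.00225), F12 (-0.47, adjusted p 0.0107) and Klkb1 (-0.36, adjusted p 0.035) were periportal and F11 was not (-0.09). Of the anticoagulants besides Serpind1, Serpinc1 was periportal (-0.43, adjusted p 0.0177), and Proc (-0.27) and Pros1 (0.13) were not called.

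In fibrinolysis Plg (-0.58, adjusted p 0.00362), Serpinf2 (-0.50, adjusted p 0.0148) and Cpb2 (-0.36, adjusted p 0.0447) were periportal, and Hrg was not called (-0.27). F5 and F13b were not called either, at -0.26 and -0.12. Of the adhesive proteins Vtn was periportal (-0.59, adjusted p 0.00212), at 1068, 901 and 1043 CPM against 727, 618 and 765 CPM, and Fn1 was not called (-0.23). F9 and Cpb2 kept their call in 3 of 13 alternative settings and Klkb1 in 5 of 13, so that these were the least stable coagulation calls.

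**Figure D3:**
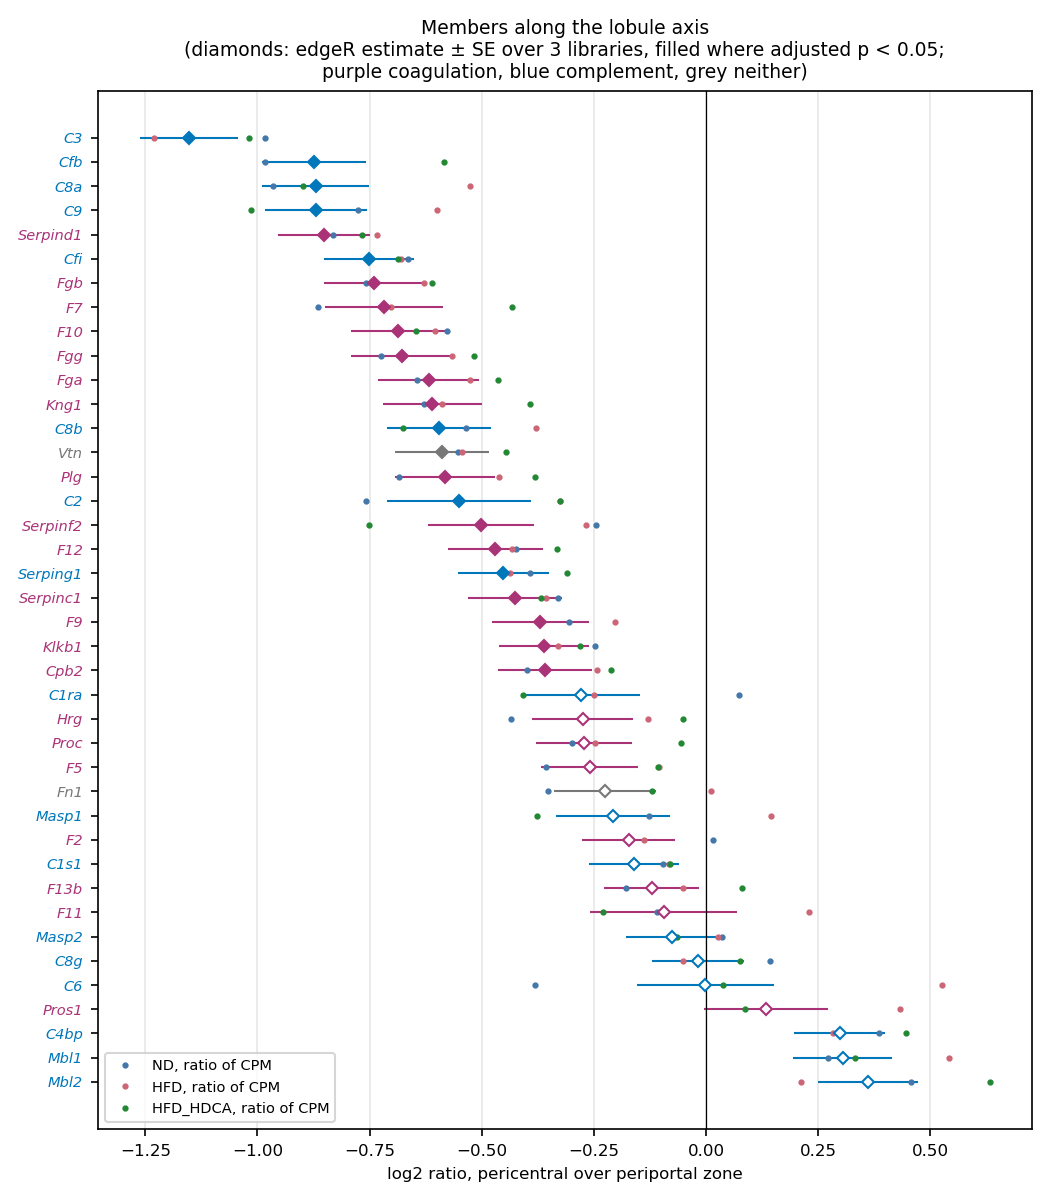
Log2 ratio of pericentral over periportal level for the 40 measured members, ordered by the edgeR estimate (diamonds with SE bars, filled where the adjusted p is under 0.05) with the ratio of CPM in each library, before TMM scaling, as a point. The 23 filled diamonds all lie left of 0, from C3 at -1.15, and the open diamonds of C4bp, Mbl1 and Mbl2 lie furthest to the right.

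The diet ratios of the members past 1.5-fold in HFD_HDCA against HFD were examined in each zone in turn. These members were chosen by their ratio over all retained barcodes, and the zones are parts of the same barcodes. C8b had a log2 ratio of HFD_HDCA over HFD of -1.21 in the periportal, -0.80 in the middle and -1.51 in the pericentral zone. C9 had -0.83, -0.90 and -1.24, and C8a -0.58, -0.72 and -0.96. C6 had -0.72, -1.11 and -1.21, and F11 -0.97, -0.95 and -1.43. The interval of each of these 15 ratios lay below 0, so that HFD_HDCA was the lower library in every zone for these genes. Given how the genes were chosen, this is no separate check of the difference between the libraries. Cfb was higher in HFD_HDCA in every zone, at 0.45 (0.28 to 0.63), 0.67 (0.351 to 1.005) and 0.75 (0.49 to 1.01). Whether these ratios differ between zones was not tested.

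The coagulation total was higher in the periportal than in the pericentral zone of each library, at 20746 against 13827 CPM in ND, 18449 against 13359 in HFD and 16475 against 12230 in HFD_HDCA. The complement total was 7312 against 5568, 8088 against 6273 and 6761 against 5412 CPM. For coagulation ND was the highest library in both zones, and for complement HFD was.

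**Figure D4:**
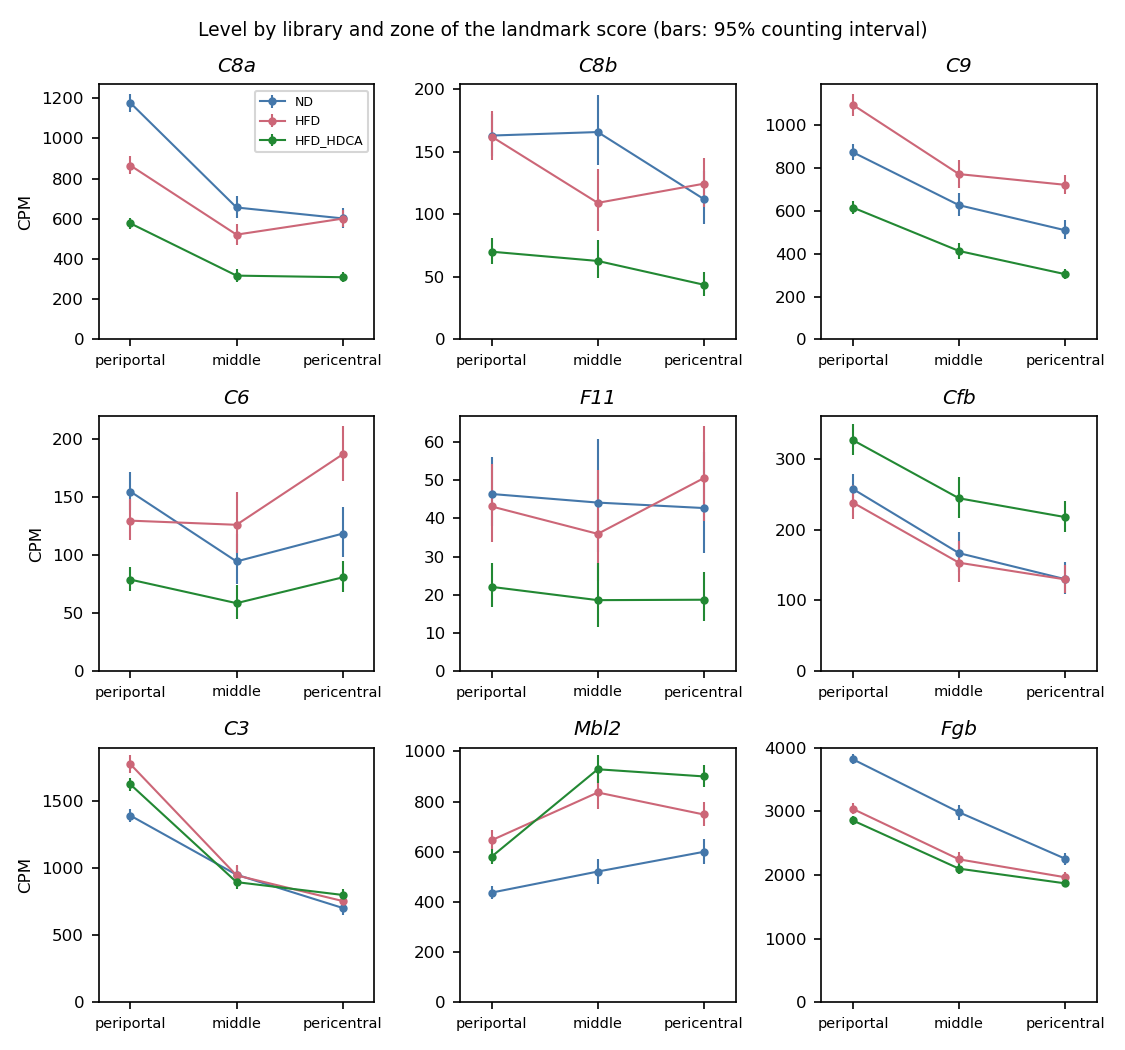
CPM of 9 members in the periportal, middle and pericentral zone of each library, with 95% counting intervals and axes from 0. The HFD_HDCA line lies lowest for C8a, C8b, C9, C6 and F11 and highest for Cfb, while C3 and Fgb lie lower in the pericentral than in the periportal zone of each library and Mbl2 lies higher.

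A few members had a higher level in other liver cells than in hepatocytes. Over the 3 libraries Pros1 was at 494 CPM in endothelial-marked barcodes (388 to 620) and 46.1 CPM in barcodes with no other cell type's markers, and Masp1, a lectin pathway protease, at 227 CPM (157 to 317) and 81.0 CPM. C6 was at 595 CPM in Kupffer-marked barcodes (427 to 807, from 41 counts) and 113 CPM in the unmarked ones. Pros1 was also higher in Kupffer-marked than in unmarked barcodes, at 160 CPM (79.6 to 285, from 11 counts). C2 was at 58.0 CPM in Kupffer-marked barcodes from 4 counts, with an interval (15.8 to 149) that included its 38.0 CPM in unmarked ones. C5ar1 had 13 counts in Kupffer-marked barcodes (189 CPM) and 1 in unmarked ones. All other measured members were lower in endothelial-marked than in unmarked barcodes. Endothelial-marked barcodes numbered 92, 20 and 34 and Kupffer-marked ones 18, 18 and 26 in ND, HFD and HFD_HDCA. Without all marked barcodes the same members passed 1.5-fold in each diet comparison, and the ratio of C6 between HFD_HDCA and HFD was -0.99.

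Further genes of the pathways were taken from a list of 22 coagulation and 22 complement genes, of which 10 and 13 were measured. In HFD against ND, 0 of the 10 coagulation genes were past 1.5-fold higher and 1 lower, and 2 of the 13 complement genes were higher and 3 lower, against 6.91% and 11.4% of all measured genes. The highest ratios were those of C4a (1.07), C1qb (0.62) and Lman1, a cargo receptor for the secretion of factors V and VIII (0.35), and the lowest those of F8 (-2.47), Cd55 (-1.74) and C1qa (-0.93). F8, the cofactor missing in haemophilia A and a product of endothelial cells, was at 18.5, 3.21 and 3.28 CPM, beside endothelial markers at 389, 60.0 and 90.9 CPM in the same libraries. C1qa, C1qb and C1qc belong to the Kupffer marker list. The ratio of C1qb came from 23 counts in ND and 31 in HFD, and its interval (-0.20 to 1.47) included 0. C1qc had the opposite sign, at -0.76 (-1.34 to -0.22), as did C1qa. In unmarked barcodes F8 had 4, 1 and 2 of its 79 ND counts in the periportal, middle and pericentral zone. In HFD it had 0, 1 and 2 of 12 there. Cd55 had 1, 1 and 2 of its 112 ND counts there, and 0, 1 and 0 of 29 in HFD. Most F8 and Cd55 counts of these 2 libraries thus lay in barcodes marked as other cell types. The part of other cell types in the ratios was not tested.

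In HFD_HDCA against HFD, 0 and 1 of the coagulation genes and 1 and 1 of the complement genes were higher and lower, against 6.76% and 4.05% of all measured genes. The highest ratios were those of C1qa (0.68), C1qc (0.52) and Cd59a, an inhibitor of the terminal pore (0.28). The interval of C1qc (-0.01 to 1.09) included 0. The lowest were those of F2r, a thrombin receptor (-1.01), C4a (-0.93) and Hc, which encodes complement C5 (-0.23). By zone, Hc (-0.94), Pzp (-0.73), a protease inhibitor of the alpha-2-macroglobulin family, Proz (-0.48), Cfhr2 (-0.48) and Kng2 (-0.48) were periportal and Cd59a was pericentral (0.43, adjusted p 0.042), out of 9 coagulation and 8 complement genes tested. Counts of the near copies Kng1 and Kng2, C4a and C4b, C1ra and C1rb, and C1s1 and C1s2 are uncertain as to the copy.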

How the data were processed

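UMI counts per gene and barcode were deposited by the authors, made with Cell Ranger 5.0.0 per the file headers and with build mm10 per the submitters' processing notes; how barcodes were chosen before deposit is not stated. No values had been normalised. Each library held the counts of 1 sample. Members, role groups, landmark, marker, regulator and pathway lists, motifs and tests were chosen with earlier results of these data known.

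Barcodes with at least 200 genes and at most 50% mitochondrially encoded counts were retained, which left 4274662, 3734740 and 5795200 nuclear-encoded counts in ND, HFD and HFD_HDCA. Counts were summed per library and given as CPM with exact Poisson 95% intervals. For log2 ratios 0.5 was added to both counts, and the intervals are exact conditional binomial 95% ones. They cover counting error only. A ratio was called at 1.5-fold or more. No doublet caller was run and no doublets were removed, so barcodes with the RNA of several cells may remain. A barcode was marked as another cell type when at least 3 UMIs over at least 2 genes of that type's list were found.

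For zones, counts were scaled to 10000 per barcode, log-transformed and standardised within a library, and the mean of periportal landmarks was subtracted from that of pericentral ones. Barcodes marked as other cell types were left out. Summed counts of the outer zones were tested with edgeR 4.0.16 (quasi-likelihood, TMM, filterByExpr, Benjamini-Hochberg, library as a block) in R 4.3.3. Landmarks were left out of the counts of calls. TMM scales away a median log2 difference between zones of 0.12, 0.04 and 0.06 in ND, HFD and HFD_HDCA. The fit was also run on simulated counts, with a common dispersion for all genes and the same zone change in each library. Simulated counts of that kind cannot show how the fit fares with zone differences that depend on diet. DESeq2 1.42.0 and other settings served as alternatives, of which those that match or restrict depth between zones were chosen after the data were seen. Tables were made with Python 3.11.15, numpy 2.4.6, pandas 2.3.3, scipy 1.17.1 and matplotlib 3.10.9.

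All members were to be named, in full where past 1.5-fold, called by zone or highest in their role group. Other pathway genes were named when among the 3 highest or 3 lowest measured ratios of a comparison or of the zone calls, and all measured regulators were. Some genes of these lists and 1 motif are not reported here and were left out of the counts. Gene positions came from GENCODE M21 on GRCm38, which held all 41 members, and promoter windows from RefSeq GRCm38.p6.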

Additional observations from a re-analysis of the deposited data

Results flagged for a closer look

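Some members had ratios of opposite sign, with counting intervals on either side of 0, between libraries or between zones. None of these differences was tested, since each value rests on 1 library. C6 was higher in the pericentral than in the periportal zone of HFD (0.53) and lower there in ND (-0.38). In the same way its ratio of HFD over ND was 0.65 in the pericentral and -0.25 in the periportal zone. F2 had a ratio of HFD over ND of 0.21 in the periportal and -0.24 in the middle zone, and C8g one of 0.12 and -0.27. Mbl2 had a ratio of HFD_HDCA over HFD of 0.15 in the middle, 0.27 in the pericentral and -0.15 in the periportal zone. Hrg had a ratio of HFD_HDCA over ND of 0.20 in the pericentral and -0.18 in the periportal zone.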

How the results depend on the processing

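Counts and medians were recomputed under alternatives. The limit was 1.5 times for counts and, for medians, the counting interval of the middle gene. Of these values 105 stayed within their limit and 17 did not. Some of the 105 could not change: a 2-fold limit leaves medians as they are, and a count minimum of 20 kept the same 40 members. Of the values of single members, 937 stayed the same and 96 diet ratios left their interval. By zone, 70 values lost their call, 8 gained one and 9 changed sign. With a 2-fold limit, HFD_HDCA against HFD had 0 members higher and 2 lower (F11 and C8b), and HFD_HDCA against ND 0 higher and 3 lower (F11, C8a and C8b). Median-of-ratios size factors gave 1 higher member (Mbl2) in HFD against ND and 0 in HFD_HDCA against HFD. Thinned barcodes gave 1 higher (F9) and 1 lower (C2) in HFD against ND and 0 higher in HFD_HDCA against HFD. Equal weights for barcodes gave 1 lower (C2) in HFD against ND. The 5 members lower in HFD_HDCA than in HFD passed 1.5-fold under each alternative except the 2-fold limit and, for F11, a count minimum of 500, which it did not reach.

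By zone, the periportal members numbered 13 with DESeq2, 2 with no library block and 16 to 21 with a library left out. The pericentral members numbered 1 with no low-count filter, 2 with all 3 zones in the fit, 1 with the share of pericentral landmark UMIs as the score, 1 without Cyp2e1 and Cyp2f2, and 0 to 3 with a library left out, 3 (C4bp, Mbl1 and Mbl2) without ND. Ratios near 0 changed sign. The C6 zone log2 ratio was 0.0194 with no library block, 0.0288 with the share score, 0.00562 without Cyp2e1 and Cyp2f2 and -0.26 to 0.24 with a library left out. The C8g zone log2 ratio was 0.0237 with zones matched on depth, 0.0133 thinned and -0.0431 to 0.0202 with a library left out, and the F11 zone log2 ratio was 0.0167 thinned. The causes were not tested. No paired analysis of the diets was possible because each diet had 1 library. The low counts of F11 and C2 limit their precision most.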

Other observations

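Barcodes above the limit of 50% mitochondrial counts with at least 200 genes numbered 454 in ND, 200 in HFD and 502 in HFD_HDCA, with a median of 338.5, 303 and 350.5 nuclear-encoded UMIs. They entered no comparison above. In them the log2 ratio of HFD_HDCA over HFD was -1.91 for F11 (-3.74 to -0.22, from 6 and 8 counts), -1.13 for C6 (-2.05 to -0.18) and -0.51 for C9 (-1.10 to 0.13). C8b had a ratio of -0.14 (-1.39 to 1.41) and C8a one of 0.37 (-0.24 to 1.08), from 98 counts in HFD_HDCA and 26 in HFD. The lower level of C8a in HFD_HDCA than in HFD was thus not found in these barcodes. Against ND, C8a was lower in HFD_HDCA here too, at -0.73 (-1.12 to -0.35). Other members did not all keep their ratio of HFD_HDCA over HFD. Fga, at -0.06 in retained barcodes, was at 0.66 (0.39 to 0.94), whereas F2, at 0.02 in retained barcodes, was at 0.01 (-0.37 to 0.42). Cfb had a ratio of 0.59 (-0.10 to 1.39).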
